A study of Rattus norvegicus with 64 samples.

Results

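In rats given saline vehicle, 12 of 31715 transcripts in liver and kidney stood lower 10 h after dosing than 5 h after it in both organs, and differed between bromobenzene and vehicle rats by less than set limits. They were chosen from measured values. On the log2(TPM + 0.5) scale, where TPM is transcripts per mega-transcripts after correction for length, the 10 h vehicle mean had to be at least 0.25 below the 5 h vehicle mean in each organ. At most 8 of the 64 pairs of one 10 h and one 5 h vehicle library could have the 10 h library higher. The mean vehicle level had to reach 2 TPM in each organ, and the 2 organ means had to lie within 16-fold of each other. Of the 31715 transcripts, 10847 met these level conditions, 649 of them with the vehicle fall in liver, 99 with it in kidney and 37 with both. The 37 made up 5.70% of the liver list and 37.4% of the kidney list. A last step left out 25 of the 37, because their mean level differed between bromobenzene and vehicle rats by 0.4 or more in liver at either time, or by 0.3 or more in kidney at 10 h. Of these 25, 19 went past the limit in liver at 10 h, and 15 of the 19 stood higher in bromobenzene livers. The mirrored rule, for transcripts higher at 10 h in both organs, gave 134 before its last step and 63 after it.

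The study dosed Sprague Dawley rats, an outbred laboratory stock, once with bromobenzene at 0.4 g/kg or with 2% saline as vehicle. Organs were taken at 10 h or 5 h, and each organ has 8 bromobenzene and 8 vehicle libraries at 10 h and 8 of each at 5 h. The groups are thus bromobenzene rats at 10 h, bromobenzene rats at 5 h, vehicle rats at 10 h and vehicle rats at 5 h, in 2 organs, with 64 libraries in all. The series text counts 32 rats in all, and no label ties a liver library to a kidney library of its own rat, although the titles number the kidney libraries 32 above liver libraries of the same time and agent throughout. The labels state no sex, age or clock time. Libraries are numbered below within their group, and the numbers pair nothing across groups.

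Bromobenzene damages the liver once cytochrome P450 enzymes have turned it into reactive products, which glutathione binds. Messenger RNA levels in rodent liver and kidney also change over hours without any toxicant. Known influences are the circadian clock, which runs in the cells of both organs, feeding and fasting, and adrenal glucocorticoids released with the daily rhythm or with handling. Since each group was taken at 1 time after dosing, hours since dosing, clock time and hours since the last meal cannot be told apart here. In whole-organ RNA, fewer cells of a type and less RNA per cell cannot be told apart either.

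The tables name transcripts by Ensembl transcript ID and pair none of them with a gene, and 0 of the IDs were matched to a gene name in the reference table used here. No gene, function, sequence or position is therefore given for the 12, and the organ labels could not be checked against named marker genes. The transcripts are called below by their length in bases, which differs between all 12. Those discussed most are ENSRNOT00000008262.6, of 1885 bases, which among those called lower in both organs of bromobenzene rats had the deepest fall in its less affected organ, and ENSRNOT00000088729.1, of 6243 bases, which had the estimate nearest 0 in either organ.

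The libraries held 13.8 to 28.3 mega-counts (estimated counts summed over all transcripts) in liver and 16.98 to 24.1 in kidney. A set of 461 transcripts, with at least 5 CPM in 10 h vehicle livers and at least 16-fold more there than in 10 h vehicle kidneys, took 41.5% to 48.9% of the counts of liver libraries. In kidney the same set took 0.249% to 0.565%, except in vehicle library 4 at 5 h, where it took 2.09%. Without that library the rule kept 11 of the 12 transcripts and dropped the 1885-base one.

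The values that chose the 12 are given first as a description. In vehicle livers the mean difference, 10 h minus 5 h, ran from -2.19 to -0.30 on the log2(TPM + 0.5) scale with a median of -0.53, while the median of the 10847 transcripts that met the level conditions was 0.01. In vehicle kidneys it ran from -1.13 to -0.30 with a median of -0.45, against 0.06 for the 10847. Every 10 h vehicle library lay below every 5 h vehicle library for 3 of the 12 in liver and for 4 in kidney. The limit on pairs was set on these same libraries, so these 2 counts only describe the choice. Nearest inside the limit on the liver difference stood the 3653-base transcript at -0.297 and the 2073-base one at -0.383, and the nearest transcript outside it stood at -0.226. For the kidney difference the nearest inside were the 6243-base transcript at -0.299 and the 2636-base one at -0.315, and the nearest outside stood at -0.226 and -0.219. The limit on pairs was met exactly by the 3346-base and 2251-base transcripts in liver, with 8 of 64 pairs, and the nearest outside had 9. For the level in kidney the 1885-base transcript passed narrowly, at 2.04 TPM. For the kidney limit on bromobenzene the 1398-base transcript passed at 0.296, and the nearest outside had 0.318.

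The 12 otherwise varied widely. Their lengths ran from 615 to 6243 bases with a median of 1979, beside a median of 1984 for the 10847. Mean vehicle levels ran from 2.75 to 65.5 TPM in liver (median 9.06, and 9.99 for the 10847) and from 2.04 to 170 TPM in kidney (median 10.2, and 16.9 for the 10847). The 2073-base transcript was the most abundant in both organs. Of the 12, 6 stood higher in kidney than in liver, most of all the 3653-base transcript, whose mean vehicle levels were 22.5 TPM in kidney and 4.16 TPM in liver. For 5 of the 12, those of 615, 1398, 1585, 2636 and 3346 bases, the estimated count was a whole number in all 64 libraries (within 1e-06), as it is when no reads are divided between transcripts. For 6, those of 1288, 1603, 2073, 2251, 3653 and 6243 bases, it was whole in at most 2 libraries. Reads of these 6 were divided with other transcripts, and their levels depend on how the authors' program split them.

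**Figure D1:**
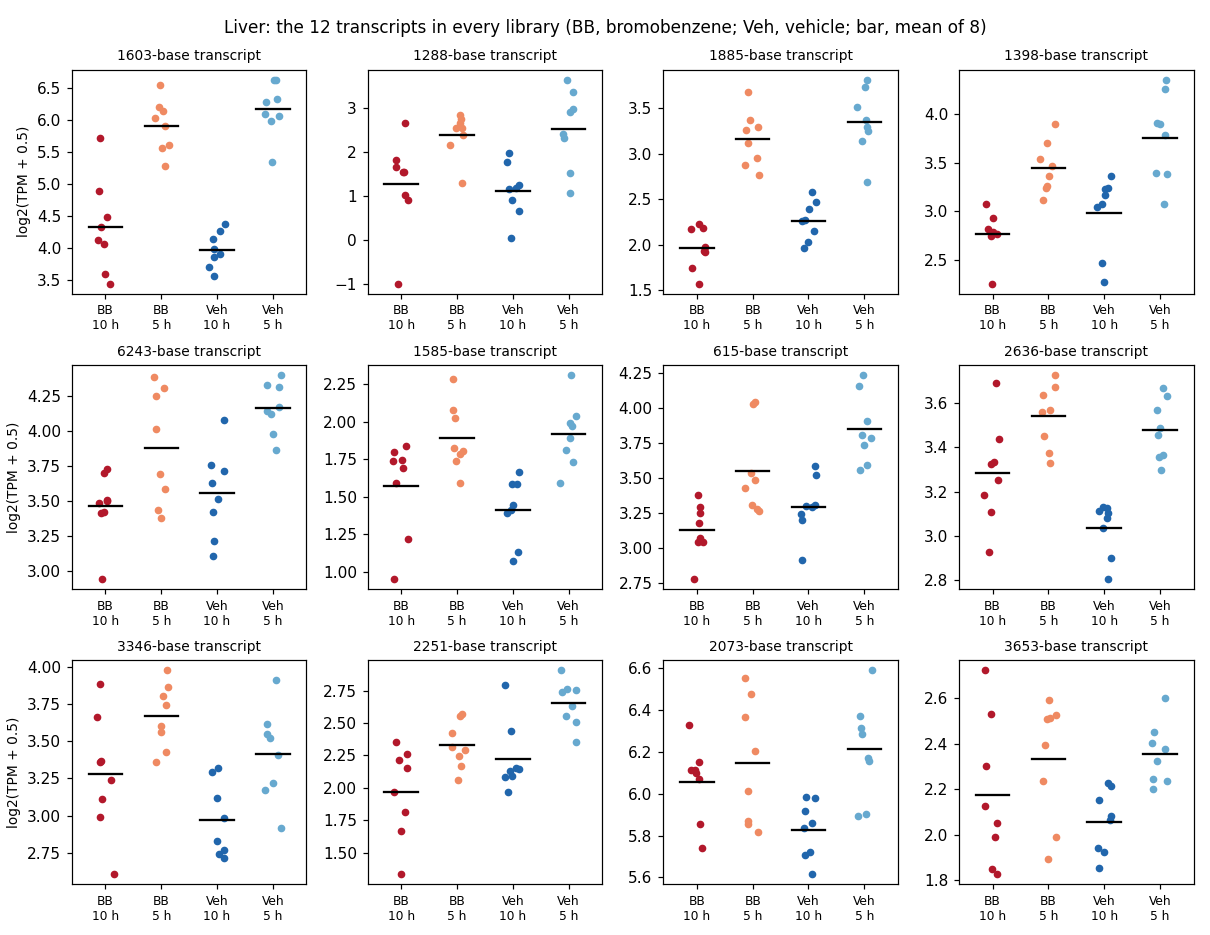
Liver level of each of the 12 transcripts in every library, on a log2(TPM + 0.5) axis that differs between panels. Each point is 1 library and each bar the mean of 8, with bromobenzene (BB) and vehicle (Veh) rats at 10 h and 5 h. In bromobenzene livers, all 10 h libraries lie below all 5 h libraries for the 1885-base and 1398-base transcripts, and the groups overlap for the other 10.

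The difference between the times was also examined in the bromobenzene rats. These are other animals than the vehicle rats, but the choice of the 12 used them too. The last step of the rule ties their means to the vehicle means, at both times in liver and at 10 h in kidney. In liver the step holds the bromobenzene difference within 0.8 of the vehicle difference on the log2(TPM + 0.5) scale. It thereby fixed the liver sign of 3 of the 12, those of 1603, 1288 and 1885 bases, whose liver differences are given as a description. For the other 9 it allowed either sign, although for the 1398-base transcript it allowed no value above 0.02. Counts are set beside those for the 37 transcripts before that step, whose bromobenzene values played no part in their choice. In bromobenzene kidneys, 8 of the 12 fell between 5 h and 10 h and none rose (edgeR quasi-likelihood test, Benjamini-Hochberg adjusted p under 0.05 over 20004 transcripts). Of all transcripts tested, 1.75% were called lower and 1.58% higher, and of those that met the level conditions 1.74% were called lower. All 12 estimates were below 0, from -1.12 to -0.22 on the log2 scale, with a median of -0.39 beside 0.00 for all transcripts tested. Of the 37, 20 fell, none rose, and 35 were below 0. In bromobenzene livers, 9 of the 12 were called lower and none higher, 7 of them among the 9 whose sign the rule did not fix, beside 4.9% of the 17535 transcripts tested that were called lower and 5.53% called higher (5.7% lower among those that met the level conditions). That split of 969 higher and 860 lower calls depends on the scaling, and was 1835 higher and 488 lower with library totals alone. On that scaling 6 of the 12 and 22 of the 37 were called lower, beside 2.78% of all transcripts tested. Without that change of scaling, all 12 liver estimates were below 0 too, from -1.58 to -0.22, with a median of -0.53 beside -0.01 for all. They include the 3 whose sign the rule fixed. Of transcripts that met the level conditions, 5312 of 10790 were below 0 in liver, and 5228 of 10815 in kidney. Of the 37, 26 fell, 1 rose and 34 were below 0. Each of the 12 was called in at least 1 organ, 5 in both, 3 in kidney alone and 4 in liver alone. Those called in both include the 1603-base and 1885-base transcripts, whose liver sign the rule fixed. The share of all transcripts called in at least 1 organ was not counted. Of the 37, 16 were called lower in both organs, and of 10783 transcripts that met the level conditions and were tested in both, 0.566%. Whether the fall differed between the organs was not tested.

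The counts rested in part on calls close to the threshold. The 8 in kidney became 5 without 10 h bromobenzene library 3, 5 or 6 or 5 h bromobenzene library 6, and 9 without 5 h bromobenzene library 4. The 9 in liver stayed between 6 and 9 when any 1 library was left out. For the 37 the same fits gave 17 to 23 in kidney and 23 to 26 in liver. Calls that held whichever single library was left out were 5 of 8 in kidney, those of 1288, 1603, 2251, 2636 and 3653 bases, and 6 of 9 in liver, those of 615, 1398, 1603, 1885, 2636 and 6243 bases. The library numbers fall into 2 runs, 1 to 18 and 19 to 32 in liver with the same order in kidney, and the labels do not say what the runs are. Within the first run (5 bromobenzene libraries at 10 h and 2 at 5 h) all 12 mean differences were below 0 in both organs, with medians of -0.46 in liver and -0.44 in kidney on the log2(TPM + 0.5) scale. Within the second (3 at 10 h and 6 at 5 h) all 12 were below 0 in liver and 11 in kidney, with medians of -0.43 and -0.30. The exception was the 615-base transcript in kidney, at 0.20. The runs divide the same bromobenzene libraries whose means the rule tied to the vehicle means. For 3 of the 12 it had fixed the liver sign over all libraries. Within the first run, edgeR put 4966 of 10809 transcripts that met the level conditions below 0 in liver. In kidney it put 5346 of 10824 below 0. The second run gave 5378 of 10814 in liver and 5404 of 10827 in kidney. Fitted within the first run, edgeR called 3 of the 12 and 10 of the 37 in kidney, where 0.833% of all transcripts tested were called lower, and 2 of the 12 and 11 of the 37 in liver, beside 0.555%. Within the second run it called 3 of the 12 and 13 of the 37 in liver, beside 0.546%. In the second run's kidneys few transcripts were called at all, 0.0674% of those tested, with 0 of the 12 and 3 of the 37. Before adjustment 7 of the 12 had p under 0.05 in those kidneys, beside 1446 of the 20765 transcripts tested, in either direction. EdgeR was the only tool used there.

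**Figure D2:**
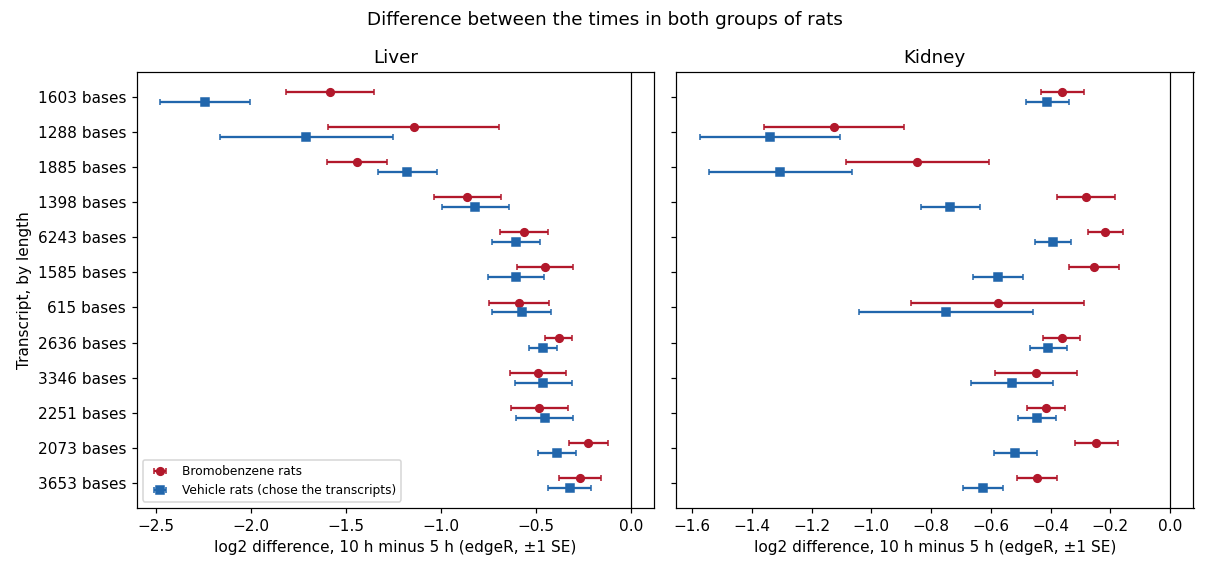
Log2 difference, 10 h minus 5 h, of each of the 12 transcripts in bromobenzene rats (circles) and in vehicle rats (squares), in liver and in kidney, from edgeR with bars of 1 SE. All 24 bromobenzene estimates lie below 0, from -1.58 to -0.22. For 3 transcripts, those of 1603, 1288 and 1885 bases, the rule fixed the sign in bromobenzene livers. The vehicle values chose the transcripts and are shown as a description.

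The 5 transcripts called lower in both organs were those of 1885, 2251, 2636, 1603 and 6243 bases. ENSRNOT00000008262.6, the 1885-base transcript, was the lowest of the 12 in kidney. Its estimated counts ran from 14 to 443 over all 64 libraries. In bromobenzene livers it stood at 3.37 TPM at 10 h (median, lowest 2.48, highest 4.18) and at 8.63 TPM at 5 h (lowest 6.33, highest 12.3). No 10 h library reached the lowest 5 h library, and only 0.341% of the 10847 transcripts were split this way in bromobenzene livers. The liver difference came to -1.44 in log2 units by edgeR (SE 0.16). On the log2(TPM + 0.5) scale it was -1.20, where the rule allowed no value above -0.28. Vehicle livers had 4.32 TPM at 10 h (lowest 3.41, highest 5.48) and 9.59 TPM at 5 h (lowest 5.94, highest 13.6). In bromobenzene kidneys it stood at 1.22 TPM at 10 h (lowest 0.693, highest 2.09) and at 2.22 TPM at 5 h (lowest 1.53, highest 4.19). The groups overlapped, with 10 h higher in 3 of 64 pairs, and the difference was -0.85 (SE 0.24, edgeR adjusted p = 0.0430). The highest 5 h value came from library 2, without which the difference was -0.71 (edgeR adjusted p = 0.112). The kidney call also ended without any 1 of 10 h libraries 1 to 7 or of 5 h libraries 1, 3, 5, 6 and 7, with adjusted p from 0.0523 to 0.112 over the 13 in all. Vehicle kidneys had 1.27 TPM at 10 h (lowest 0.566, highest 1.78) and 2.70 TPM at 5 h (lowest 1.68, highest 4.32).

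The 1603-base transcript had the deepest vehicle difference in liver, -2.19, so that the rule allowed no bromobenzene difference above -1.39 there. Bromobenzene livers held 18.3 TPM at 10 h (median, lowest 10.4, highest 52.1) and 61.9 TPM at 5 h (lowest 38.3, highest 93.2). One 10 h library at 52.1 TPM lay inside the 5 h range, and the other 7 lay below it. The difference was -1.58 (SE 0.23). Vehicle livers held 15.03 TPM at 10 h (lowest 11.3, highest 20.2) and 72.4 TPM at 5 h (lowest 40.4, highest 98.3), with no overlap. In kidney the same transcript moved far less. Bromobenzene kidneys had 53.2 TPM at 10 h (lowest 45.2, highest 59.1) and 68.02 TPM at 5 h (lowest 58.1, highest 79.03), a difference of -0.36 (SE 0.07, edgeR adjusted p = 0.00331). Vehicle kidneys had 48.1 TPM at 10 h (lowest 42.1, highest 57.6) and 61.01 TPM at 5 h (lowest 53.2, highest 69.9). At 10 h the kidney and liver ranges did not overlap in vehicle rats and overlapped in bromobenzene rats through the liver library at 52.1 TPM.

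The 2251-base and 2636-base transcripts moved by similar amounts in the 2 organs. For the 2251-base one, bromobenzene kidneys had 20.9 TPM at 10 h (median, lowest 18.02, highest 23.8) and 28.3 TPM at 5 h (lowest 22.7, highest 31.02). In 1 of 64 pairs the 10 h library was higher, and the difference was -0.42 (SE 0.06, edgeR adjusted p = 0.000133). In bromobenzene livers, at 3.67 TPM at 10 h (lowest 2.02, highest 4.62) and 4.44 TPM at 5 h (lowest 3.68, highest 5.43), it was -0.48 (SE 0.15, edgeR adjusted p = 0.0355). That liver call ended without 10 h library 1, 2, 4, 5 or 8 or 5 h library 1, 2, 4, 6 or 7 (adjusted p from 0.0538 to 0.0895). For the 2636-base transcript, bromobenzene kidneys had 10.6 TPM at 10 h (lowest 10.3, highest 14.1) and 14.3 TPM at 5 h (lowest 12.8, highest 16.9). A single 10 h library entered the 5 h range. Its difference was -0.36 in kidney (SE 0.06, edgeR adjusted p = 0.000509) and -0.38 in liver (SE 0.07, edgeR adjusted p = 0.000483). Bromobenzene livers held 9.29 TPM of it at 10 h (lowest 7.09, highest 12.4) and 11.3 TPM at 5 h (lowest 9.55, highest 12.7), with the 10 h library higher in 10 of 64 pairs.

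ENSRNOT00000088729.1, the longest of the 12 at 6243 bases, had the smallest estimate in kidney. Bromobenzene kidneys held 10.2 TPM at 10 h (median, lowest 8.82, highest 11.7) and 12.2 TPM at 5 h (lowest 9.71, highest 12.97). The 10 h library was higher in 8 of 64 pairs, and the difference was -0.22 (SE 0.06, edgeR adjusted p = 0.0374). The call ended without 10 h library 3, 5, 6 or 7 or 5 h library 6 or 8, with adjusted p from 0.0516 to 0.0708. In bromobenzene livers it stood at 10.8 TPM at 10 h (lowest 7.21, highest 12.8) and at 14.05 TPM at 5 h (lowest 9.92, highest 20.4). The liver ranges overlapped more, with 10 h higher in 16 of 64 pairs, and the difference was -0.56 (SE 0.13, edgeR adjusted p = 0.00286). Vehicle livers had 11.4 TPM at 10 h (lowest 8.13, highest 16.4) and 17.3 TPM at 5 h (lowest 14.1, highest 20.6).

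**Figure D3:**
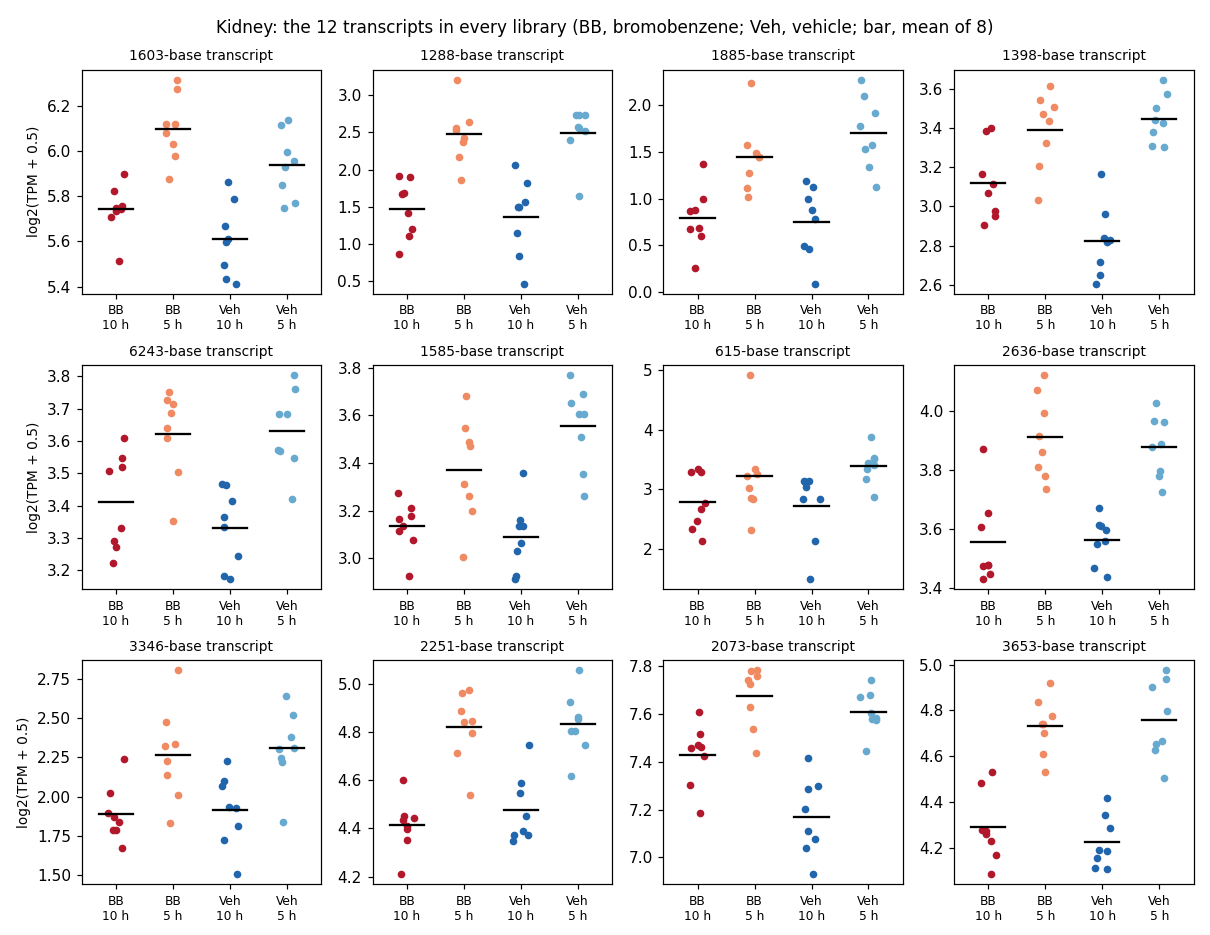
Kidney level of each of the 12 transcripts in every library, on a log2(TPM + 0.5) axis that differs between panels, with symbols as in the liver plot. In bromobenzene kidneys the 10 h and 5 h groups overlap for all 12, by 1 of 64 pairs for the 1603-base, 2251-base and 3653-base transcripts.

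The 1288-base, 3653-base and 2073-base transcripts were called lower in bromobenzene rats in kidney alone, although their liver estimates were below 0 as well. The 1288-base transcript had the deepest kidney fall, -1.12 (SE 0.23, edgeR adjusted p = 0.00453). Bromobenzene kidneys held 2.43 TPM of it at 10 h (median, lowest 1.32, highest 3.27) and 5.07 TPM at 5 h (lowest 3.14, highest 8.73). In liver its edgeR estimate was -1.14 and the libraries spread widely (SE 0.45). On the log2(TPM + 0.5) scale its liver difference was -1.13, where the rule allowed no value above -0.61. Bromobenzene livers had a median of 2.41 TPM at 10 h, with a highest of 5.85, and one 10 h library listed it at 0, where 3 counts would make 0.166 TPM. At 5 h they had 5.34 TPM (lowest 1.95, highest 6.64). The 3653-base transcript stood at 18.8 TPM in 10 h bromobenzene kidneys (lowest 16.5, highest 22.6) and at 26.3 TPM in 5 h ones (lowest 22.6, highest 29.8). Vehicle kidneys held 17.7 TPM at 10 h (lowest 16.7, highest 20.9) and 26.1 TPM at 5 h (lowest 22.2, highest 30.98), with no overlap. The kidney difference of -0.45 in bromobenzene rats had the smallest adjusted p of the 12 (SE 0.07, edgeR adjusted p = 0.000105). In liver it was -0.27 (SE 0.11, edgeR adjusted p = 0.138). The abundant 2073-base transcript stood at 176 TPM at 10 h (lowest 145, highest 195) and 213 TPM at 5 h (lowest 173, highest 220) in bromobenzene kidneys. Vehicle kidneys held 142 TPM at 10 h (lowest 122, highest 170) and 193 TPM at 5 h (lowest 174, highest 214). The bromobenzene difference in kidney was -0.25 (SE 0.07, edgeR adjusted p = 0.0486), and in liver, at medians of 68.4 TPM at 10 h and 68.6 TPM at 5 h, it was -0.22 (SE 0.10, edgeR adjusted p = 0.175). The kidney call of this transcript ended without 10 h library 1, 2, 3, 5, 6 or 7 or 5 h library 1, 3, 5, 6, 7 or 8, with adjusted p from 0.0533 to 0.0892.

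The 1398-base, 615-base, 3346-base and 1585-base transcripts were called lower in bromobenzene rats in liver alone, although their kidney estimates were below 0 as well. For the 1398-base one, bromobenzene livers held 6.35 TPM at 10 h (median, lowest 4.26, highest 7.90) and 10.2 TPM at 5 h (lowest 8.18, highest 14.5). No 10 h library reached the lowest 5 h library, and the difference was -0.86 (SE 0.18, edgeR adjusted p = 0.00134). On the log2(TPM + 0.5) scale the difference was -0.68, where the rule allowed no value above 0.02. Vehicle livers held 8.19 TPM at 10 h (lowest 4.30, highest 9.78) and 13.9 TPM at 5 h (lowest 7.92, highest 19.97). Its kidney estimate in bromobenzene rats was -0.28 (SE 0.10, edgeR adjusted p = 0.115), at medians of 8.02 TPM at 10 h and 10.5 TPM at 5 h, and in vehicle kidneys no 10 h library reached the lowest 5 h library, with medians of 6.58 TPM at 10 h and 10.3 TPM at 5 h. The 615-base transcript, the shortest, stood at 8.24 TPM in 10 h bromobenzene livers (lowest 6.38, highest 9.89) and at 10.5 TPM in 5 h ones (lowest 9.11, highest 15.9), a difference of -0.59 (SE 0.16, edgeR adjusted p = 0.0133). In kidney its libraries spread so widely that an estimate of nearly the same size, -0.58, had an SE of 0.29 (edgeR adjusted p = 0.335). One 5 h bromobenzene kidney library, library 2, held 29.7 TPM against 4.48 to 9.56 in the other 7, and without it the estimate was -0.18 (SE 0.24, edgeR adjusted p = 0.803). The same library held the highest 5 h level of the 1885-base transcript. The 3346-base transcript gave -0.49 in liver (SE 0.15, edgeR adjusted p = 0.0304), at 9.36 TPM at 10 h (lowest 5.60, highest 14.3) and 12.3 TPM at 5 h (lowest 9.80, highest 15.3), and -0.45 in kidney (SE 0.14, edgeR adjusted p = 0.0642). Its liver call ended without 10 h library 2, 4, 5, 7 or 8 or 5 h library 3, 5 or 7 (adjusted p from 0.0541 to 0.0817). The 1585-base transcript, among the lowest in liver, gave -0.45 there (SE 0.15, edgeR adjusted p = 0.0437) and -0.25 in kidney (SE 0.08, edgeR adjusted p = 0.0962). Bromobenzene livers held 2.78 TPM of it at 10 h (lowest 1.44, highest 3.08) and 3.02 TPM at 5 h (lowest 2.51, highest 4.38). That call ended without 10 h library 1, 2, 5 or 8 or 5 h library 3, 4, 5 or 6 (adjusted p from 0.0501 to 0.104).

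The condition that chose the transcripts in vehicle rats was also applied to bromobenzene rats. A fall of at least 0.25 on the log2(TPM + 0.5) scale with at most 8 of 64 pairs higher at 10 h was met by 6 of the 12 in bromobenzene kidneys, beside 1.6% of the 10847 transcripts that met the level conditions. In bromobenzene livers 4 of the 12 met it, those of 615, 1398, 1603 and 1885 bases, beside 2.11%. The last step of the rule had itself required a liver fall of more than 0.25 for the 1603-base and 1885-base ones. It had done the same for the 1288-base transcript. Of the 37, 18 met the condition in kidney and 18 in liver. Every 10 h library lay below every 5 h library for 2 of the 12 and 10 of the 37 in bromobenzene livers, beside 0.341% of the 10847. The 2 were the 1885-base transcript, whose liver sign the rule fixed, and the 1398-base one, held to at most 0.02. In bromobenzene kidneys such a full separation held for none of the 12 and 6 of the 37, all 6 among the 25 left out. It held for 0.267% of the 10847.

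**Figure D4:**
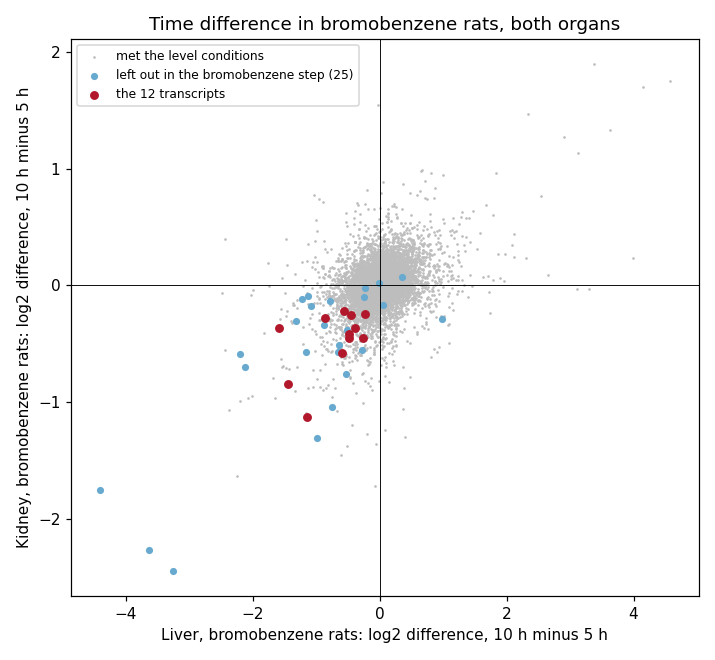
Log2 difference, 10 h minus 5 h, in bromobenzene rats for transcripts that met the level conditions and were tested in both organs, liver on the horizontal and kidney on the vertical axis. The 12 transcripts and the 25 left out in the last step are marked. All 12 lie where both organs are below 0, and the rule fixed the liver sign of 3 of them.

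Averaged over the 12 transcripts, the level of a library separated the times in each organ and group of rats except in kidney after bromobenzene. Bromobenzene livers stood at 2.94 ± 0.14 (mean log2(TPM + 0.5) over the 12, SD, n = 8) at 10 h and at 3.52 ± 0.14 at 5 h, with the highest 10 h library at 3.13 and the lowest 5 h library at 3.34. Vehicle livers stood at 2.89 ± 0.09 at 10 h and 3.65 ± 0.21 at 5 h. Bromobenzene kidneys had 3.50 ± 0.10 at 10 h and 3.92 ± 0.16 at 5 h, and the highest 10 h library, at 3.74, lay just above the lowest 5 h library, at 3.71. Vehicle kidneys had 3.42 ± 0.09 at 10 h and 3.96 ± 0.12 at 5 h. The vehicle separation follows from the choice of transcripts. The last step of the rule tied the bromobenzene means to the vehicle means, at both times in liver and at 10 h in kidney. The bromobenzene values are therefore given as a description too.

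**Figure D5:**
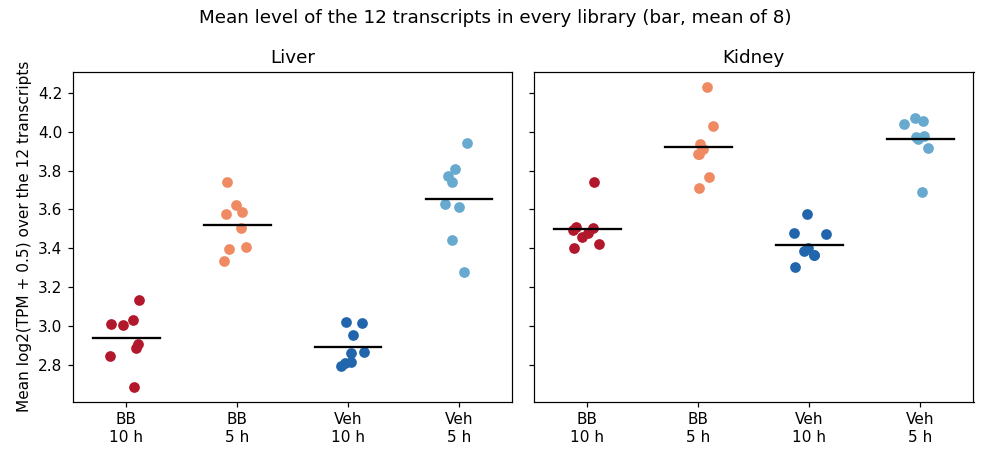
Mean log2(TPM + 0.5) over the 12 transcripts in every library, with bars for the mean of 8, in bromobenzene (BB) and vehicle (Veh) rats at 10 h and 5 h. The 10 h libraries lie below the 5 h libraries in each organ, with 1 bromobenzene kidney library at 3.74 overlapping the 5 h range.

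Of the comparisons of bromobenzene with vehicle within a time, the rule had not used the one in kidney at 5 h. None of the 12 was called there by edgeR, DESeq2 or limma, beside 0.375% of the 20004 transcripts tested with edgeR. At an unadjusted p under 0.05 edgeR gave 1 of the 12, beside 2806 of the 20004. The differences ran from -0.26 to 0.16 on the log2(TPM + 0.5) scale, with 9 of 12 below 0 and a median of -0.02. That comparison shares its 5 h vehicle libraries with the choice of the 12. The one past the unadjusted threshold was the 1585-base transcript, named after its value was seen. It stood at 10.01 TPM in bromobenzene kidneys (median, lowest 7.53, highest 12.3) and at 11.7 TPM in vehicle kidneys (lowest 9.08, highest 13.1), a difference of -0.23 (SE 0.08, edgeR adjusted p = 0.206). Largest in size was the 1885-base transcript at -0.37 (SE 0.23, edgeR adjusted p = 0.492). The comparisons the rule bounded are given as a description. On the log2(TPM + 0.5) scale the 12 differed between bromobenzene and vehicle rats by -0.30 to 0.36 in liver at 10 h, by -0.32 to 0.25 in liver at 5 h and by -0.06 to 0.30 in kidney at 10 h. On edgeR's scale, which the rule did not use, the ranges were -0.40 to 0.45, -0.31 to 0.31 and -0.02 to 0.37. The rule bounded the kidney comparison at 10 h for the 12. Low levels in 10 h vehicle kidneys also helped choose the 12 and the 37, so calls in kidney at 10 h are a description. EdgeR called 1 of the 12 and 6 of the 37 higher in bromobenzene kidneys at 10 h, beside 0.305% of all transcripts tested. That one was the 2073-base transcript, named after its value was seen, with a difference of 0.30 (SE 0.07). Its medians were 176 TPM in bromobenzene kidneys and 142 TPM in vehicle kidneys.

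Library to library, most pairs of the 12 were weakly correlated. Taken as deviations from their group means over the 32 libraries of an organ, the 66 pairs of transcripts had a median correlation of 0.07 in liver (from -0.43 to 0.61) and of 0.23 in kidney (from -0.30 to 0.71). The highest value in each organ was that of the 6243-base and 3653-base transcripts. These correlations are descriptions over libraries that share depth and the scaling of TPM.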

How the data were processed

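Per the labels' protocols, stranded libraries of poly-A-enriched RNA were sequenced in 150-nt pairs; that text speaks of cultured cells, the other labels of organs. The submitters' processing notes name kallisto 0.42.4 and Rnor_6.0. Annotation release and read filters were not stated there. The authors deposited, per library, an estimated count (unnormalized, shared reads divided among transcripts) and a TPM value for each of 31715 transcripts.

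Members were chosen on log2(TPM + 0.5). Rounded estimated counts passed filterByExpr (at least 10 counts, total at least 15) and TMM scaling, and edgeR 4.0.16 (R 4.3.3) gave the tests (robust quasi-likelihood F test, 32 libraries and 4 groups per organ, no covariate). SE is the log2 difference divided by the square root of F. Alternatives used limma 3.58.1 and DESeq2 1.42.0. The kidney fit was also run on simulated counts with known changes and the same dispersion for every transcript. That run did not cover the liver fit or libraries that stand apart. The members and comparisons were chosen with earlier results of these data known. At most 2 IDs are printed: among members called in both organs, that with the largest value of its smaller fall, and the member with the smallest fall in either organ. Gene lists planned from symbols were not analysed here. All 224 within-group pairs of libraries differed by more than sampling noise (chi-square over its degrees of freedom at least 10.3). Nothing says how rats were housed or batched, so p-values measure the spread between these libraries, and read counts are not counts of molecules.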

Additional observations from a re-analysis of the deposited data

Results flagged for a closer look

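Among 96 groups of 8 values (12 transcripts in 8 groups), 6 had a highest or lowest library set apart from the rest by a gap above Dixon's 95% critical value, and chance flags about 1 in 20 such groups. In 5 h bromobenzene kidneys, library 2 held 4.19 TPM of the 1885-base transcript against 1.53 to 2.47 in the other 7, and 29.7 TPM of the 615-base transcript against 4.48 to 9.56. In 10 h bromobenzene livers, library 5 held 4.26 TPM of the 1398-base transcript against 6.17 to 7.90, and library 3 held 7.21 TPM of the 6243-base transcript against 10.2 to 12.8. For the 1288-base transcript, 5 h bromobenzene liver library 1 held 1.95 TPM against 3.95 to 6.64, and 5 h vehicle kidney library 3 held 2.63 TPM against 4.77 to 6.18.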

How the results depend on the processing

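All 12 members stayed below 0 in bromobenzene rats under 27 alternatives in liver and 28 in kidney, except the 615-base transcript in kidney, at 0.22 in the second run alone. The rule had fixed the liver sign of 3 of the 12. Of the 12, kidney calls were 5 with no filter on low counts, 3 in the first run of library numbers alone and 0 in the second, and from 5 to 9 with 1 library left out. Liver calls were 5 with limma on log2(TPM + 0.1) and with only the 2 groups compared, 2 in the first run and 3 in the second, and from 6 to 9 with 1 library left out. The median of the members ran from -0.44 to -0.37 in kidney and from -0.56 to -0.48 in liver with 1 library left out, and was -0.39 in liver with limma on log2(TPM + 1). With library totals alone the median of all liver transcripts was 0.09, against -0.01 with TMM, the members' median was -0.43, and the split of all liver calls was 1835 higher and 488 lower, against 969 and 860. Limma on the 3 log2(TPM) scales gave 1793 to 1833 higher and 466 to 475 lower in liver and 208 to 210 higher and 261 to 264 lower in kidney, where edgeR gave 317 and 350. With only the 2 groups compared, liver had 548 higher and 502 lower and kidney 191 and 223, and DESeq2 called 529 lower in kidney. Over all transcripts the first run gave 68 higher and 102 lower in liver and 81 and 174 in kidney, and the second 229 and 101 in liver and 6 and 14 in kidney. The kidney comparison at 5 h gave 0 members under every alternative. Without 5 h vehicle kidney library 4 and 5 h bromobenzene kidney library 8, 6 of the 12 were called in kidney. Of the 20099 transcripts tested there, 448 were called lower. With no filter on low counts, 274 of 28327 were called lower in kidney. With 1 library left out, 256 to 478 of all transcripts were called lower in kidney and 669 to 1039 in liver. The rule gave 37 transcripts without its bromobenzene step, 6 with at most 4 of 64 pairs, 23 on TMM-scaled CPM (9 of them among the 12) and 36 from the first run's vehicle libraries on the differences alone (10 among the 12). The runs hold fewer libraries, and for the other changes the cause was not tested. Depth limits the 1288-base, 1885-base and 615-base transcripts most, whose estimated counts went as low as 0, 14 and 17.

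No paired analysis was possible because the groups compared within an organ hold different rats, per the series text, and the labels give these groups no shared replicate numbers. The title numbers pair each of the 32 liver libraries with a kidney library of the same time and agent, which bears on no comparison within an organ. When the fit had a term for the 2 runs, 7 of the 12 were called in kidney and 8 in liver. Of all transcripts tested in that fit, 341 of 20004 were called lower in kidney and 758 of 17535 in liver.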
